A study of Danio rerio with 9 samples.

Results

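The wild-type tailbuds of a heat-shock overexpression experiment in zebrafish were described on their own, using every sample whose label gave the wild-type genotype. These were 3 samples of 9, each a pool of 10 dissected tailbuds. The other 6 samples were 3 of tg(hsp70l:tbx16) and 3 of tg(hsp70l:msgn1), lines in which a heat-inducible promoter drives the T-box factor tbx16 or the bHLH factor msgn1 wherever the embryo is heated. The study used these lines to follow gene expression after a pulse of either factor, and wild type was the baseline of both comparisons. The lines are called the tbx16 line and the msgn1 line below.

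All 9 samples were treated alike, so the wild-type libraries describe a heat-shocked tailbud and none of these samples was left unshocked. Embryos with 2 to 3 somites were heated for 30 min, and tailbuds were cut off just behind the last somite 3 h later. The labels give the temperature as 28 degrees. The study's methods give a higher one for the heating and a value near the label's for the 3 h after it. The wild-type pools were embryos without the transgene from outcrosses of heterozygous tg(hsp70l:msgn1) fish, identified by PCR. They therefore shared parents with the msgn1-line samples but not with the tbx16-line samples, which came from outcrosses of homozygous fish, and for that line genotype and parents cannot be told apart. Age in hours, sex and the number of clutches per pool were not given in the sources used here.

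The tailbud is the growth zone at the posterior end of the embryo. It holds neuromesodermal progenitors, which express the T-box gene tbxta together with sox2 and give rise to spinal cord and paraxial mesoderm, and midline progenitors of notochord and floor plate. Cells that leave for the paraxial mesoderm pass through a state marked by tbx16 and msgn1 into tbx6-expressing presomitic mesoderm, where oscillating her genes and Notch ligands set the rhythm of somite formation. Wnt, Fgf and Bmp signals keep the progenitors in place, and Hox genes are switched on in order along the body axis.

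The wild-type libraries held 43889121, 34971233 and 39683177 counts in replicates 1, 2 and 3. Of 31956 named lines in the table, 23689 had a count in at least 1 wild-type sample and 14786 reached a CPM of 1 in every one, where CPM are counts scaled to the same library total of 1000000. The 10 most abundant genes took 6.02% of all counts, the first 100 took 21.95% and the first 1000 took 55.8%. A count of 3, used as the floor of detection, corresponds to 0.0684, 0.0859 and 0.0757 CPM in replicates 1, 2 and 3. Counts grow with transcript length and no lengths were available, so an order of CPM between genes is an order of counts and not of molecules.

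The most counted genes were those of translation, chromatin, chaperones and the cytoskeleton. The elongation factor gene eef1a1l1 had the most counts, at 14312, 15209 and 12505 CPM in replicates 1, 2 and 3. It was followed by the chromatin protein gene hmga1a at 9195 ± 675 CPM (mean ± SD, n = 3, as for the values below) and the elongation factor gene eef2b at 7434 ± 686 CPM. The chaperone gene hsp90ab1 had 6202 ± 392 CPM and the actin gene actb2 had 4469 ± 661 CPM. The RNA-binding protein genes ybx1 and cirbpb, the mitochondrial ADP/ATP carrier gene slc25a5 and the ribosomal protein genes rplp0 and rpl3 completed the 10 highest, between 3589 and 3943 CPM. As a group, 81 ribosomal protein genes took 8.79% of the counts, and 80 of them reached 10 CPM in every sample.

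**Figure D1:**
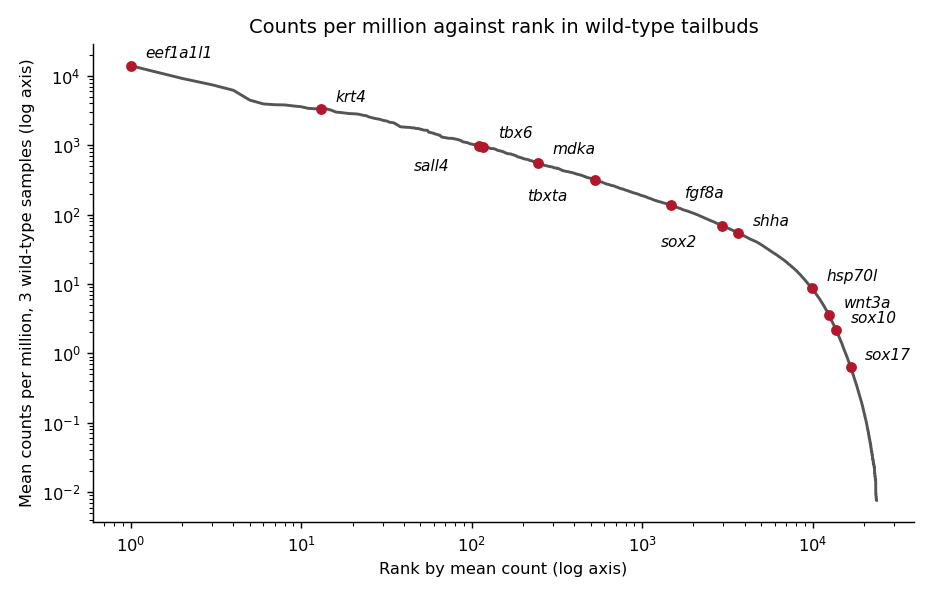
Mean CPM over the 3 wild-type samples (y, log axis) against rank (x, log axis) for every line with a count, with named genes as points. The T-box gene tbx6 lies at rank 117, sox2 at rank 2941 and the heat-shock gene hsp70l, whose promoter drives the transgenes has a mean of 8.61 CPM.

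Among the 20 genes with the highest counts, a keratin gene and an apolipoprotein gene stood beside the housekeeping genes. The periderm keratin gene krt4 ranked 13 on average but was at 3243, 5340 and 1487 CPM, which put it at rank 14, rank 5 and rank 54 in replicates 1, 2 and 3. Its SD was 57.5% of its mean, the largest among those 20 genes. The lipoprotein gene apoeb, listed here with the yolk syncytial layer, was steadier, at 3004 ± 202 CPM and rank 16. The gap junction gene cx43.4 was at 2915 ± 95.1 CPM and rank 18.

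Several chaperone genes were abundant, while the heat-inducible hsp70 genes had far fewer counts. The 34 genes of the heat-shock list took 2.06% of the counts, led by hsp90ab1, by the constitutive Hsp70 gene hspa8 at 3213, 3158 and 3243 CPM and by the small heat-shock protein gene hspb1 at 2364, 2323 and 3418 CPM. By contrast, hsp70l was at 3.56, 6.07 and 16.2 CPM and hsp70.3 at 4.95, 6.04 and 51.6 CPM. The lens small heat-shock protein gene cryaba had no count, which allows at most the floor in each library. Replicate 3 was the highest of the 3 for hspb1, hsp70l and hsp70.3, while the SD of hspa8 was 1.34% of its mean. Without unshocked tailbuds, no share of these levels can be assigned to the heating.

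Transcription factors were counted by symbol family, which took in 823 genes but left out most zinc-finger genes and the HMG chromatin proteins. Of these, 592 reached 1 CPM in every wild-type sample, 394 reached 10 CPM and 93 reached 100 CPM, and 45 had no count. Together they took 3.97% of the counts. The upper end of the list was held by ybx1, which also binds RNA, by arid3b at 1257 ± 46.1 CPM and by genes of the tailbud progenitors and the presomitic mesoderm.

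Progenitor and presomitic genes were among the most counted factors. The spalt-family gene sall4 was at 980, 952 and 1036 CPM and ranked 110 among all genes. The presomitic T-box gene tbx6 followed at 938, 1006 and 913 CPM, the caudal gene cdx4 at 829, 880 and 943 CPM and msgn1 at 733, 871 and 735 CPM. The SD of these 4 genes was 4.34% to 10.2% of the mean, and none varied between replicates beyond the test described below (edgeR adjusted p = 1.00 for each). The T-box gene tbx16 was at 333, 356 and 390 CPM and rank 450, its relative tbx16l was at 419 ± 25.1 CPM, and tbxta was at 293, 309 and 353 CPM and rank 530.

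Other factors with high counts were id1 (598 ± 29.8 CPM), an inhibitor of bHLH factors that responds to Bmp, the stress-response factor gene atf4a (492 ± 58.1 CPM) and hes6 (431 ± 37.5 CPM), a partner of the oscillating Her proteins. The hypoxia-factor genes hif1al and hif1ab, tcf3b, which encodes a bHLH partner protein, and hoxc3a were at between 362 and 387 CPM. The myogenic factor gene myf5 was at 343 ± 28.9 CPM, the somite homeobox gene meox1 at 328 ± 26.0 CPM and the Fgf-responsive gene etv5b at 341 ± 9.36 CPM. Of the other myogenic factors, myod1 was at 137 ± 14.2 CPM and myog at 12.7 CPM.

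Of the 23 genes on the progenitor list, 22 reached 1 CPM in every sample, 11 reached 100 CPM, and the median was 113 CPM, against 18.5 CPM for all genes that reached 1 CPM in every sample. The exception was cdx1b, which had at most 3 counts in any sample. The neural side of the neuromesodermal state was represented by the SoxB1 genes: sox2 was at 69.5, 74.0 and 64.5 CPM, sox3 at 77.5 ± 6.44 CPM and sox19a at 256 ± 6.31 CPM. The second brachyury gene tbxtb was at 52.6 ± 7.77 CPM and the pluripotency factor gene pou5f3 at 42.6 ± 4.02 CPM. In a pool of cells these counts do not show which genes were on in the same cell, and fewer cells of a type cannot be told apart from less RNA per cell.

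All 9 segmentation clock genes were counted at 10 CPM or more in every sample. The oscillator genes her1 and her7 were at 234, 250 and 187 CPM and at 115, 133 and 122 CPM, and the Notch ligand genes dld and dlc at 406 ± 20.8 and 359 ± 35.5 CPM. For her1 replicate 3 was the lowest and for her7 replicate 1 was, and neither gene varied between replicates beyond the test (edgeR adjusted p = 1.00 for each). Presomitic and somite factors covered a wide range below tbx6 and meox1, with snai1a at 187 ± 10.6 CPM, foxc1a at 173 ± 6.36 CPM, the anterior presomitic genes ripply1 at 122 ± 10.4 CPM and mespab at 30.4 ± 2.29 CPM, and ripply2 at 18.9 ± 0.895 CPM.

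**Figure D2:**
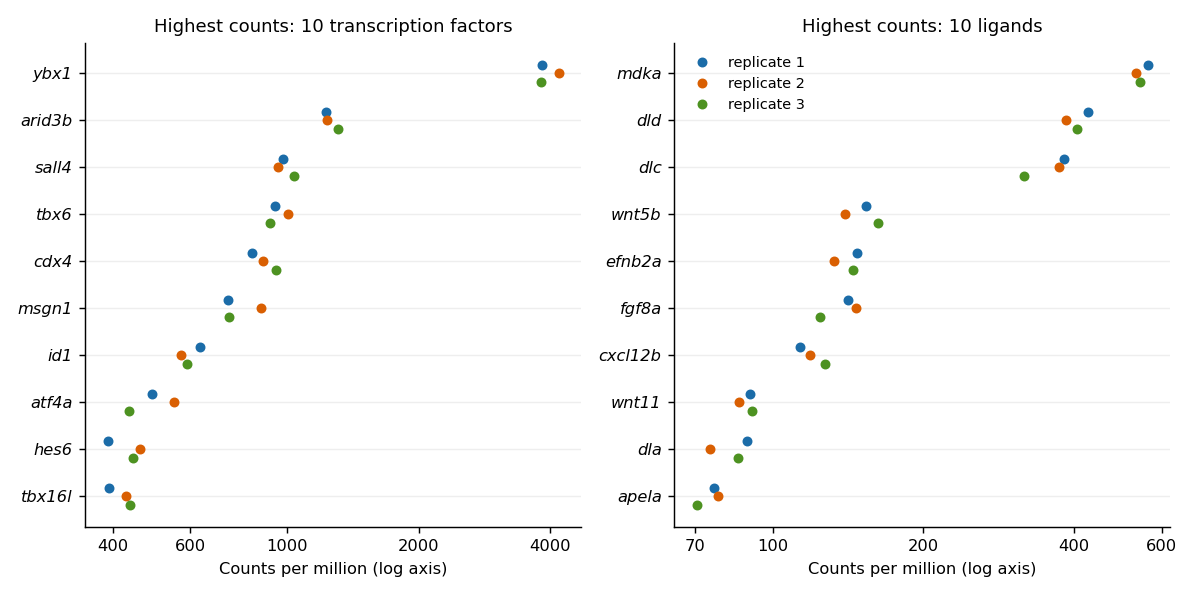
CPM (x, log axes) of the 10 transcription factor genes (left) and the 10 ligand genes (right) with the highest wild-type means, with 1 point per wild-type replicate coloured by replicate number. The 3 points of a gene lie close together in both panels, and the SD of atf4a, 11.8% of its mean, is the widest among the factors shown.

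Hox genes were expressed across the whole axial series, with the highest summed counts in paralog group 9. Of 48 Hox genes, 41 reached 1 CPM in every sample and 11 reached 100 CPM. Summed by paralog group, group 9 was at 782, 806 and 970 CPM, followed by group 3 at 694 ± 59.9 CPM, group 10 at 395 ± 34.5 CPM and group 11 at 274 ± 22.6 CPM. The samples of group 9 and group 3 did not overlap, and neither did those of group 3 and group 10. These sums cover 5 genes in group 9, 3 in group 3, 4 in group 10 and 5 in group 11. Their order therefore depends on the number of paralogs, and the most counted single Hox gene was hoxc3a of group 3. Groups 12 and 13, which pattern the tail, were at 84.6 ± 6.74 and 27.5 ± 3.35 CPM. Single genes led each sum, with hoxb9a at 281 ± 27.0 CPM in group 9, hoxc3a at 362 ± 30.2 CPM and hoxb3a at 216 ± 14.2 CPM in group 3, and hoxa13b at 15.7 ± 2.44 CPM in group 13.

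Of 131 genes for secreted and membrane-bound ligands, 83 reached 1 CPM in every sample, 45 reached 10 CPM and 7 reached 100 CPM, and 11 had no count. The growth factor gene mdka was highest at 563, 532 and 542 CPM. After dld and dlc came the noncanonical Wnt gene wnt5b at 154, 139 and 162 CPM, the ephrin gene efnb2a at 141 CPM, fgf8a at 142, 147 and 124 CPM and the chemokine gene cxcl12b at 120 ± 6.96 CPM. The last places among the 10 highest went to wnt11 at 88.9 ± 2.87 CPM, the Notch ligand gene dla at 83.0 ± 7.21 CPM and the peptide hormone gene apela at 74.8 ± 3.78 CPM. The samples of neighbours from wnt5b to cxcl12b overlapped, as did those of wnt11 and dla and of dla and apela, so these orders are not resolved by 3 samples.

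Within the Wnt family only wnt5b passed 100 CPM in every sample, while the canonical tailbud ligand gene wnt3a was at 3.57 ± 0.721 CPM and wnt8a at 1.31 CPM, a value that is uncertain because the name occurs on more than 1 line of the table. Among genes that Wnt signalling induces, sp5l was at 233 ± 9.71 CPM, lef1 at 151 ± 18.3 CPM and axin2 at 115 ± 12.9 CPM. In the Fgf family fgf8a, fgf17 (56.7 ± 4.98 CPM), fgf3 (50.5 ± 7.02 CPM) and fgf4 (22.8 ± 1.80 CPM) led. All 11 Fgf-induced genes listed passed 10 CPM in every sample, and the feedback inhibitor gene dusp6 had the most counts among them, at 470, 477 and 545 CPM.

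Genes for Bmp ligands and for their antagonists were both detected. The ligand genes with the most counts were bmp3 at 60.0 ± 4.38 CPM, bmp4 at 41.0 ± 4.53 CPM and bmp7a at 33.5 ± 3.17 CPM, whereas the Bmp-binding antagonist gene chrd was at 264 ± 11.0 CPM and szl, a secreted inhibitor of Chordin cleavage, at 217 ± 33.4 CPM. The retinoic acid-degrading enzyme gene cyp26a1 was at 155 ± 9.80 CPM and aldh1a2, the gene of the enzyme that makes retinoic acid in somites, at 78.4 ± 18.7 CPM. In the hedgehog family shha was at 49.2, 47.7 and 66.6 CPM and dhh was under the floor in replicates 1 and 2.

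Marker lists were read for each tissue that the cut could hold. All 15 notochord and floor plate genes reached 10 CPM in every sample, led by the collagen gene col2a1a (681, 462 and 720 CPM), and the notochord progenitor gene noto was at 44.8 ± 6.20 CPM. All 18 spinal cord and neuronal genes reached 1 CPM, with sox11b at 194 ± 15.5 CPM and the neuronal RNA-binding protein gene elavl3 at 105 ± 20.5 CPM. Among muscle genes acta1a was at 514 ± 93.1 CPM and the slow myosin gene smyhc1 at 285 ± 82.1 CPM, while the troponin gene tnnc1b had no count.

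Other tissues of the trunk were detected as well. Intermediate mesoderm was represented by hnf1ba (49.6 ± 3.33 CPM) and pax2a (47.3 ± 2.45 CPM), and blood and vessel precursors by lmo2 (118 ± 9.12 CPM), etv2 (72.2 ± 7.46 CPM) and tal1 (69.2 ± 3.16 CPM). Of 9 neural crest genes, 8 reached 1 CPM in every sample and 5 reached 10 CPM. Among them tfap2a was at 190 ± 10.7 CPM, a gene that epidermis also expresses, and sox10 was at 2.15 ± 0.332 CPM. Germ cell genes were found, with piwil1 at 34.1 ± 7.83 CPM and ddx4 at 11.3 ± 0.217 CPM. These were the only 2 of 8 listed germ cell genes at 10 CPM in every sample. Of the 8, 5 reached 1 CPM in every sample, and the median was 2.78 CPM. Of 10 genes of Kupffer's vesicle and endoderm, 8 reached 1 CPM in every sample and 6 reached 10 CPM. The cilia gene foxj1a, used in Kupffer's vesicle and floor plate, was at 65.8 ± 4.58 CPM. The endoderm genes sox17 and sox32 were the only 2 with a mean under 1 CPM, at 0.629 and 0.184 CPM.

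Few head, heart and lens genes had many counts. Of 19 genes of forebrain to anterior hindbrain, 6 reached 1 CPM in every sample and 3 reached 10 CPM, while 10 had a mean under 1 CPM, lhx2b had no count and the forebrain and midbrain gene otx2b was at 2.38 ± 0.467 CPM. The highest of this list, emx3, was at 22.7 ± 1.35 CPM. The cardiac myosin gene myl7 was at 0.0504 CPM, and 4 of 8 lens and retina genes had no count in any wild-type sample. Genes of the yolk syncytial layer, which lies outside the embryo proper, were all 12 above 1 CPM and took 0.503% of the counts. The gene apoeb alone had 3004 of the list's summed 5029 CPM, so this share rests mostly on 1 gene.

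**Figure D3:**
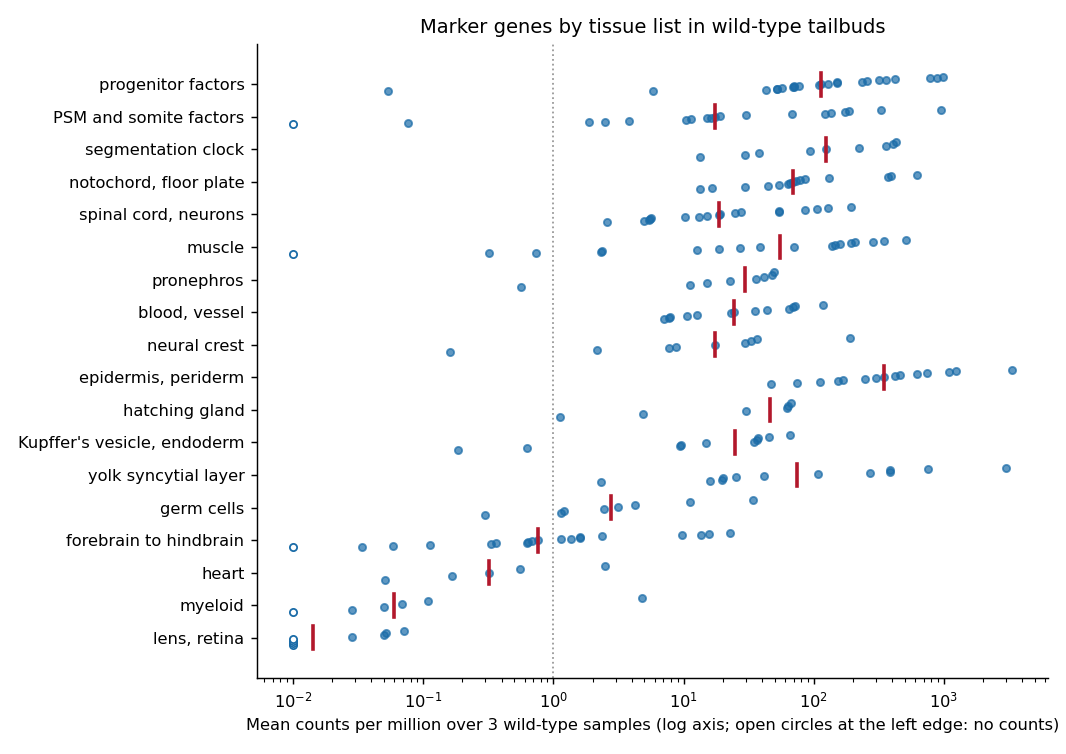
Mean CPM over the 3 wild-type samples (x, log axis) of each gene in 18 tissue lists (rows), where the red bar is the median of a list and the dotted line is 1 CPM. The progenitor list has a median of 113 CPM, the epidermis and periderm list of 349 CPM and the list of forebrain to hindbrain genes of 0.758 CPM.

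Replicates were close over most genes. Genes between 10 and 100 CPM had a median SD of 8.99% of the mean, where counting error alone gives 2.95%, and those between 100 and 1000 CPM had 6.53% against 1.21%. The correlation of log2 CPM over 15626 genes was 0.992 between replicates 1 and 2, 0.984 between 1 and 3 and 0.976 between 2 and 3, a description over genes, which are not independent. The common biological coefficient of variation, edgeR's estimate of the spread beyond counting error, was 19.9% in wild type, 20.1% in the tbx16 line and 25.1% in the msgn1 line.

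Genes of the outer skin, the hatching gland and the heat-shock response were among those that varied between wild-type samples. Each gene was tested for more spread among the 3 samples than the trend over genes of like abundance predicts, with edgeR's goodness-of-fit test and Benjamini-Hochberg adjustment. The test called 316 of 17651 genes (1.79%), and 847 had an unadjusted p below 0.05. The median highest-to-lowest fold was 6.53 among the called genes and 1.25 among all tested. Without replicate 3 the count was 90, of which 65 were among the 316. It was 198 without replicate 2, of which 188 were among them, and 229 without replicate 1, of which 228 were. The samples are pools whose clutches are not stated, so these p-values measure only the spread between these 3 pools.

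The calls followed a single order far more often than the tested genes did. Of the 316 genes, 242 were highest in replicate 2 and lowest in replicate 3, against 3973 of the 17651 tested. Replicate 3 was the lowest sample for 257 called genes and the highest for 53.

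Periderm genes were among those high in replicate 2 and low in replicate 3. The periderm is the flat outermost cell layer of the fish embryo, which covers the tailbud as well as the rest of the body. Of 15 genes on the epidermis list, 10 were called (background 1.79%), all in that order, and the same number was called without replicate 3. This list, like those of hatching gland and heat-shock genes below, was chosen with earlier results of these data known. The excess of calls in these lists is therefore no independent support. The summed CPM of the epidermis list was 9109, 14565 and 4414 in replicates 1, 2 and 3. Besides krt4 (3.84-fold between highest and lowest, adjusted p = 8.00e-11), krt5 was at 1146, 2130 and 413 CPM, krt17 at 249, 433 and 59.4 CPM and the tight junction gene cldne at 108, 209 and 18.8 CPM (11.9-fold, adjusted p = 8.44e-34).

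Genes outside that list moved with the keratins. The periplakin gene ppl, which builds the cornified envelope in mammals, was at 111, 181 and 18 CPM, and the epithelial factor genes grhl3, grhl1 and ovol1a were called in the same order, with grhl3 at 8.07, 17.6 and 2.72 CPM. The connexin gene cx30.3 had the largest fold of all calls that passed the rule for naming (34.7-fold on TMM-scaled values, at 13.4, 22.9 and 0.706 CPM, adjusted p = 1.34e-18). The 5 genes of the epidermis list that were not called were the tight junction gene cldni and tfap2c, epcam, tp63 and dlx3b. The basal epidermal factor gene tp63 was at 148, 148 and 164 CPM and cldni at 464, 478 and 429 CPM, and the SD of tp63 was 6.27% of its mean.

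**Figure D4:**
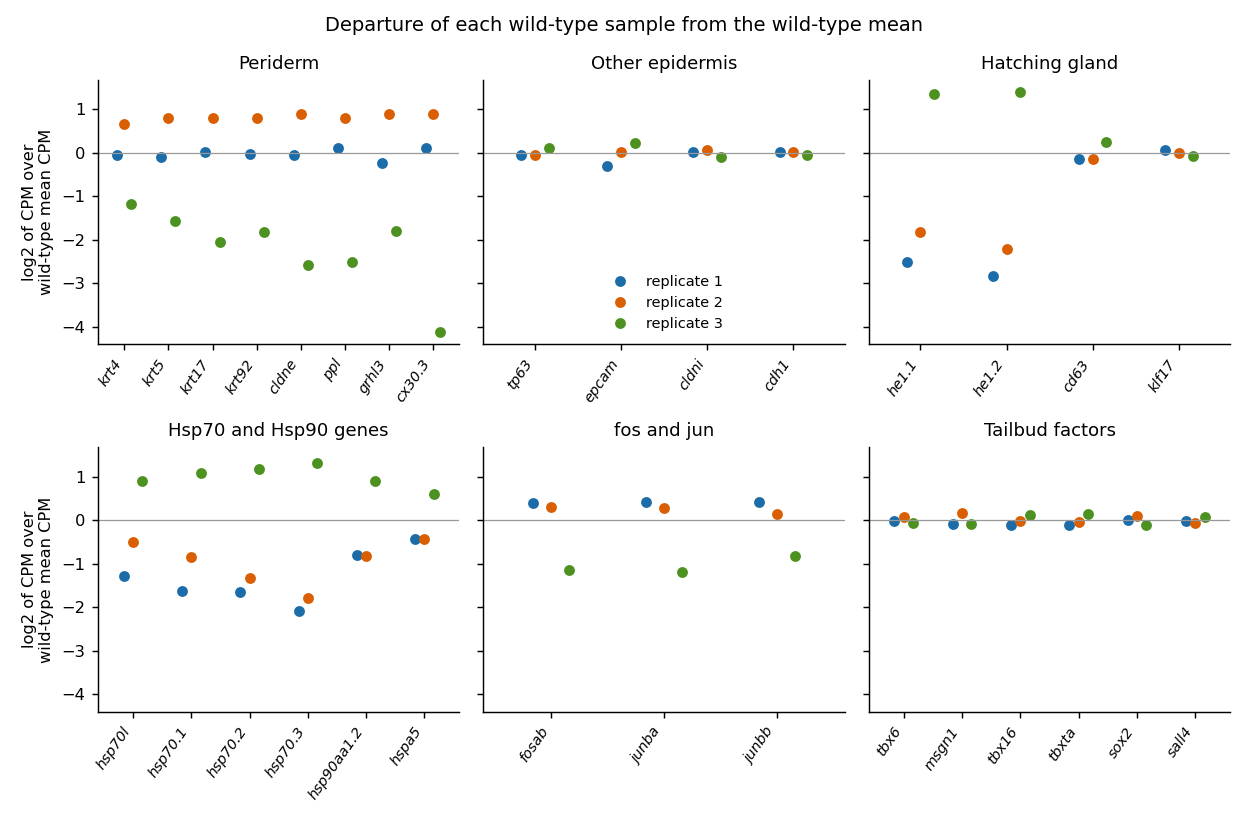
Each wild-type sample's CPM over the wild-type mean, on a log2 scale (y), for genes in 6 groups (x), with 1 point per replicate. Replicate 3 lies lowest for all 8 periderm genes and highest for he1.1, he1.2 and the 6 Hsp70 and Hsp90 genes shown. All of these genes had been called as varying, some were chosen with values in view, and their place here is no separate result. The genes hsp90ab1 and hspa8, which were not called, are not shown. The 6 tailbud factors shown, which leave out the called gene cdx1a, lie close to 0 in all 3 samples.

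Hatching gland enzymes were high in replicate 3. The hatching gland forms from the anterior-most mesendoderm and lies at the other end of the embryo at this stage. The hatching enzyme gene he1.1 was at 11.0, 17.8 and 159 CPM (13.8-fold, adjusted p = 1.90e-45), he1.2 at 0.684, 1.06 and 13.0 CPM and the protease gene ctslb at 3.58, 4.61 and 82.0 CPM on the most counted of 4 lines with that name. These 3 of 6 listed genes were called (background 1.79%), and none was called when replicate 3 was left out. Of the others, klf17 was at 66.0, 62.6 and 60.0 CPM and cd63 at 60.4, 60.6 and 79.9 CPM. The head gene otx2b did not follow, at 2.87, 1.95 and 2.32 CPM. The source of these counts was not tested.

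Several heat-shock genes were also high in replicate 3. Of 31 tested, 7 were called (background 1.79%), all with replicate 3 highest, and 3 were called without replicate 1 and none without replicate 3. They were hsp70l, hsp70.1, hsp70.2, hsp70.3, hspa8b, hsp90aa1.2 and hspa5. The inducible Hsp90 gene hsp90aa1.2 was at 122, 121 and 396 CPM (3.12-fold, adjusted p = 1.11e-12), and the endoplasmic reticulum chaperone gene hspa5 at 648, 648 and 1327 CPM. Over the whole list, 22 of the 31 had their highest value in replicate 3, against 38.3% of all tested genes. The most counted gene of the list, hsp90ab1, was lowest in replicate 3, at 6361, 6489 and 5755 CPM, and was not called.

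Among the transcription factor families 10 of 667 tested genes were called (1.5%, against 1.79% of all genes), and 3, 6 and 3 were called without replicates 1, 2 and 3. Beside grhl3, grhl1 and ovol1a they included ikzf2, also low in replicate 3, and cux1a, which was low in replicate 2. The immediate early genes fosab (28.8, 27.2 and 9.91 CPM), junba and junbb had their lowest value in replicate 3. The caudal gene cdx1a was the only one of 22 tested progenitor genes that was called (193, 158 and 104 CPM, adjusted p = 0.0205), and the call was lost with a trend from all 9 samples, with library size alone, or without replicate 1 or 3. No clock gene of 9 and no presomitic or somite gene of 17 was called, and leaving out any replicate called none either, which does not show that these genes did not vary. Of 96 ligands only wnt16 was called, at 1.87, 2.89 and 9.21 CPM, a call that was lost without replicate 1 or 3 and with a trend from all 9 samples.

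The 12 named genes of largest fold included others that were on none of the tissue lists. The elongation factor gene eef2a.2, a paralog of the abundant eef2b, was at 34.6, 27.6 and 1.19 CPM (30.6-fold, adjusted p = 3.92e-23). The ceramidase gene acer1 (7.41, 12.7 and 0.631 CPM) and irg1l (21.0, 43.5 and 2.22 CPM) had the order of the keratins. The receptor phosphatase gene ptprua was near 0.456 and 0.458 CPM in replicates 1 and 2 and at 10.9 CPM in replicate 3. The remaining 7 carry systematic names, of which si:dkey-239j18.2, si:dkey-239j18.3 and si:dkey-26g8.5 were highest in replicate 3 and the other 4 lowest there. For 10 of the 12, the call was lost when replicate 3 was left out, and irg1l and si:ch211-153b23.3 kept it.

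The same genes were then read in the other genotypes, each tested within its own 3 samples. The test called 185 of 18370 genes in the tbx16 line (1.01%) and 215 of 16627 in the msgn1 line (1.29%). Of 282 genes called in wild type and tested in the msgn1 line, 159 were called there too, which is 56.4% of the wild-type calls and 75% of the msgn1-line calls among genes tested in both. For the tbx16 line the overlap was 42 of 296, or 14.2% of the wild-type calls and 24.0% of the tbx16-line calls. The place of replicate 3 as the lowest sample also recurred in the msgn1 line. Of 226 called genes lowest in wild-type replicate 3, 216 were lowest in msgn1-line replicate 3 (95.6%, against 43.6% of all tested genes lowest in wild-type replicate 3), whereas 24 of 252 were lowest in tbx16-line replicate 3 (9.52%, against 30.6%).

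Single genes showed the place of replicate 3 in each line. In msgn1-line replicates 1, 2 and 3, krt4 was at 4685, 3258 and 1428 CPM, cldne at 127, 69.9 and 6.69 CPM and hsp70.3 at 4.17, 6.68 and 67.6 CPM. For krt4 and cldne the highest sample was replicate 1 in the msgn1 line and replicate 2 in wild type. The elongation factor gene eef2a.2 was at 12.1, 25.9 and 0.395 CPM in the msgn1 line and at 18.2, 17.7 and 19.3 CPM in the tbx16 line. In tbx16-line replicates 1, 2 and 3, krt4 was at 2921, 5096 and 3149 CPM and hsp70.3 at 18.7, 15.7 and 5.54 CPM. Hatching enzyme he1.1 was at 23.5, 57.6 and 92.4 CPM in the msgn1 line and at 141, 0 and 2.02 CPM in the tbx16 line, so a high value occurred in 1 library of the tbx16 line and was not tied to replicate 3 there. The labels do not say whether equal replicate numbers mark a shared clutch or day, and a shared origin of the libraries numbered 3 was not tested.

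**Figure D5:**
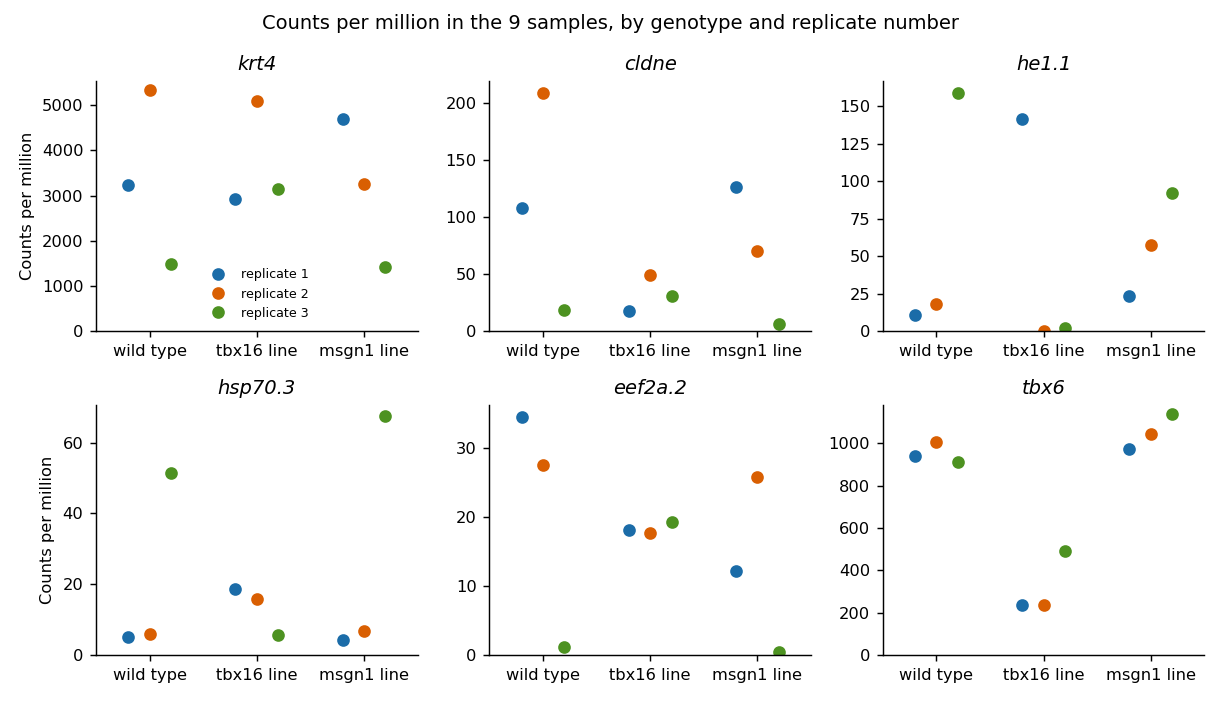
CPM (y, from 0) of 6 genes in the 9 samples by genotype (x), with points coloured by replicate number. For krt4, cldne and eef2a.2 replicate 3 is the lowest sample in wild type and the msgn1 line but not in the tbx16 line, and tbx6 lies between 913 and 1006 CPM in wild type and between 235 and 493 CPM in the tbx16 line.

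Against this baseline the lines differed by very unequal numbers of genes, fitted over all 9 samples with edgeR's quasi-likelihood test. In tbx16, 2995 of 19914 genes were higher than in wild type (15%) and 3125 lower (15.7%). In msgn1, 71 were higher (0.357%) and 99 lower (0.497%), against 309 and 394 with DESeq2 and 44 and 41 with a replicate block. Scaling by library size alone moved the median of all genes from 0.03 to 0.18 (log2) in the tbx16 line and from -0.02 to -0.20 in the msgn1 line, and with it the calls to 3757 higher and 2204 lower in the tbx16 line and to 44 and 147 in the msgn1 line. Without wild-type replicate 1 the total fell from 6120 to 3968 in the tbx16 line and from 170 to 37 in the msgn1 line. The msgn1-line total was 48 without wild-type replicate 2, 66 without wild-type replicate 3, 73 without msgn1-line replicate 1, 90 without msgn1-line replicate 3 and 1198 without msgn1-line replicate 2.

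Tailbud progenitor factors were lower in the tbx16 line more often than tested genes in general. Of 22 progenitor genes tested, 16 were lower and 2 higher in the tbx16 line (14 and 2 with library size alone). Over all tested genes 15.7% were lower and 15% higher. The list had a median log2 difference of -1.03, against a median of 0.03 over all genes. It was chosen with earlier results of these data known, so its excess is no independent support. The paper names several of its members, among them tbxta, sox2 and cdx4, as repressed by tbx16. The tbx16 gene itself is among the 2 that were higher. Such a drop was not particular to the progenitor list. Of 15 notochord and floor plate genes 11 were lower and 0 higher (median log2 difference -0.83). Of 18 spinal cord and neuronal genes 10 were lower and 2 higher (-0.60), and of 12 yolk syncytial layer genes 7 and 1 (-2.23). Of 18 presomitic and somite genes 6 were lower and 4 higher (-0.20). Of 728 tested genes of the transcription factor families, 251 were lower and 105 higher (212 and 123 with library size alone, and 214 and 65 without wild-type replicate 1). Set against the 15.7% lower and 15% higher of all tested genes, only the 251 lower calls exceed the background. The presomitic gene tbx6 was at 237, 235 and 493 CPM in the tbx16 line, below all wild-type samples (log2 difference -1.70 ± 0.28 SE, adjusted p = 0.00141), and sox2 was at 25.6, 18 and 22.6 CPM (-1.80 ± 0.17, adjusted p = 5.33e-05). The T-box gene tbxta was at 82.3, 110 and 126 CPM in the tbx16 line (-1.73 ± 0.16, adjusted p = 5.39e-05) and at 157, 199 and 154 CPM in the msgn1 line (-0.73 ± 0.16, adjusted p = 0.0703). The targeted genes, whose counts may include transgene transcripts, were at 955, 1101 and 612 CPM for tbx16 in its line and at 1541, 1416 and 1697 CPM for msgn1 in its line, above every wild-type sample in both.

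Lists that varied between wild-type samples, and some other lists, were compared with the tbx16 line as well. The muscle and Tgf-beta lists held no gene called as varying, and the Wnt list held only wnt16. Of the 15 epidermis genes none was higher and 4 were lower in the tbx16 line (background 15% higher and 15.7% lower). Among the 4 were tp63 (log2 difference -1.33 ± 0.15 SE), cldni (-1.10 ± 0.14) and epcam (-0.65 ± 0.22), which were not called as varying in wild type. The median log2 difference of the epidermis list was -0.08, and it was 0.40 without wild-type replicate 2 and -0.53 without wild-type replicate 3. For the progenitor list the medians without the same samples were -1.03 and -1.02. Of 6 hatching gland genes none was higher or lower in the tbx16 line, and of 33 heat-shock genes 1 was higher and 4 were lower. The log2 difference was -0.53 ± 1.61 SE for he1.1 and -0.44 ± 1.55 for he1.2. With that spread, the lack of a call does not show that these 2 genes were alike in both genotypes. Of 17 muscle genes 1 was higher and 2 were lower in the tbx16 line, and 2 and 3 when only these genotypes were fitted. Of 29 genes for Tgf-beta family ligands, 16 were lower and 1 was higher in the tbx16 line (13 and 1 with library size alone), and of 22 Wnt genes, 13 were lower and 1 was higher (11 and 1 with library size alone).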

How the data were processed

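RNA of pooled zebrafish tailbuds was sequenced in 9 samples, grouped by the genotype in their labels. The authors trimmed reads with Trim Galore 0.5.0, aligned them to GRCz11 with HISAT2 2.1.0, used StringTie for quantification, and their deposited table gives raw counts as whole numbers. The annotation release and the step to whole numbers are not given in the sources used here. Lines with a blank name (64 lines, 0.082% to 0.101% of counts) were left out. Each other line was a gene of its own, and a repeated name was represented in lists by its most counted line, so such genes are uncertain. CPM were taken over named lines.

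Variation between replicates was tested within each genotype with the goodness-of-fit test of edgeR 4.0.16 (R 4.3.3; TMM scaling, filterByExpr, trended dispersion), and lines were compared with wild type in 1 quasi-likelihood fit of all 9 samples without a block, both with a Benjamini-Hochberg adjusted p below 0.05. Folds between replicates are on TMM-scaled values. DESeq2 1.42.0 was an alternative. Both fits were tested on simulated counts. Samples with equal replicate numbers did not deviate together in every pair. Pairs of wild-type samples differed by 18.6 to 57.9 in chi-square per gene, so none was a library deposited again.

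The members and gene lists were chosen with earlier results of these data known. Genes are named as the 10 highest, the 15 highest transcription factors, the 10 highest ligands, the leading and defining genes of each list, the 12 called genes of largest fold with a mean of at least 100 counts and a unique name, and called genes of the lists, some of which are not reported here. The factor families were widened after values were seen, and genes outside the rule (further progenitor, Hox and signalling genes, ppl, grhl3 and other called factors) were chosen with values in view.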

Additional observations from a re-analysis of the deposited data

How the results depend on the processing

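The count of 316 varying genes lay between 223 and 414 with RLE factors, library size alone, other filters, a dispersion trend from all 9 samples or a threshold of 0.01, and between 90 and 229 when 1 wild-type replicate was left out. In the tbx16 line 6120 genes differed from wild type, with 3213 at a threshold of 0.01, 5436 with a replicate block, 7075 with DESeq2 and 3968 to 6644 with 1 of the 9 samples left out. In the msgn1 line the count of 170 became 53 at the threshold of 0.01, 85 with a replicate block, 703 with DESeq2 and 37 to 1198 with 1 sample left out. Deviations of samples with equal numbers correlated at 0.105, 0.0182 and 0.402 between wild type and the msgn1 line. For the tbx16 line the values were -0.0445, 0.116 and -0.0688. Between unequal numbers they ran from -0.325 to 0.265 for the msgn1 line and from -0.15 to 0.173 for the tbx16 line. Only the pair numbered 3 of wild type and the msgn1 line lay above all unequal pairs, and the numbers were not treated as pairs. The 10 called genes of the transcription factor families became 5 with the trend from all 9 samples, and those higher and lower in the tbx16 line went from 105 and 251 to 59 and 191 at the threshold of 0.01. The cause of these moves was not tested. Wild-type CPM of 38 named genes moved by less than 1 SD in 152 of 152 alternatives. Leaving out 1 of 3 samples cannot move a mean by 1 SD, so those alternatives could not have come out otherwise. For the 12 named varying genes, 86 of 96 alternatives kept the call and 10 lost it, all without replicate 3. For 12 contrasts of single genes, 186 of 204 kept their side of the threshold, 12 lost and 6 gained a call, and none reversed. Ranks per coding length were not run, because no lengths were at hand. Between the 3 wild-type libraries, the median spread exceeded counting error in each abundance class from 1 CPM upward. At 1 to 10 CPM the median SD was 18.6% of the mean, where counting error alone gives 8.53%. Genes with a mean under 1 CPM were not covered, and the source of the spread was not tested.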

Other observations

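Histone and cytoskeleton genes were a further part of the wild-type baseline. The 58 lines with histone names took 0.540% of the counts, and the translation and cytoskeleton list of 104 genes took 6.28%. The linker histone gene histh1l was at 230, 263 and 121 CPM in replicates 1, 2 and 3 (edgeR adjusted p = 1.70e-04), and the muscle gene klhl41b, chosen after its values were seen, was at 80.0, 53.2 and 148 CPM (adjusted p = 3.81e-05). Myeloid cells left little trace, with mpx and mpeg1.1 each under 0.3 CPM in every sample, while lcp1, the actin-bundling protein gene of leukocytes, was at 4.45, 8.79 and 1.16 CPM in the order of the periderm genes.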
